A study of Homo sapiens with 6 samples.

Results

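The genes that encode the proteins of the mitochondrial ribosome were taken from the count table by name: every gene symbol made of MRPL (large subunit) or MRPS (small subunit), digits and an optional A, B or C, leaving out pseudogenes and antisense RNAs. This gave 77 genes, 48 MRPL and 29 MRPS, of 54261 symbols. They were measured in 786-O, a human line from a clear cell carcinoma of the kidney, transfected by CRISPR-Cas9 either with a control guide RNA (3 libraries, PHF8 wild type) or with a guide RNA against PHF8 (3 libraries, labelled PHF8 knockout). PHF8 removes methyl groups from histones, and both groups share the cell line, its medium and the transfection. The labels leave unstated whether the knockout line is 1 clone or a pool and whether a group's libraries are separate cultures, so p-values measure only library-to-library spread, which may be technical.

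Mitochondria carry their own ribosome, built from RNAs encoded in mitochondrial DNA and from proteins that are all encoded in the nucleus, made in the cytosol and imported. It translates the few messages of the mitochondrial genome, which encode core subunits of the respiratory chain and of ATP synthase. Part of its proteins descend from bacterial ribosomal proteins and part are found only in mitochondria, and factors such as NRF1, GABP (an ETS factor) and YY1 are known to act at promoters of nuclear genes for mitochondrial proteins.

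Libraries held 21533615 to 29095133 counted reads. Levels are given as CPM, read counts divided by the TMM-scaled library size in units of 1e+06 reads. PHF8 itself stood at 36.6, 35.1 and 32.9 CPM in control libraries 1 to 3 and at 10.8, 6.74 and 12.8 CPM in the knockout libraries, a log2 fold change of -1.78 ± 0.21 (SE, adjusted p = 0.000119, edgeR). All 10 markers fixed for the line passed the expression filter, among them PAX8, the renal lineage factor. PTPRC, which defines leukocytes, CD3E, which marks T cells only, and CDH5, which defines endothelium, had 0 reads. Of 5 leukocyte markers 1 passed the filter, CD68, which rose from a mean of 45 to 117 CPM; the list summed to 43.8 to 48.0 CPM in control and 112 to 122 CPM in knockout libraries. The 5 endothelial markers summed to 2.05 to 2.32 and 2.96 to 4.52 CPM, with KDR and TEK called higher (log2 fold change 1.04 and 1.06). The 5 fibroblast markers summed to 3.95 to 4.12 and 0.726 to 1.58 CPM, with LUM and PDGFRB called lower (-2.61 and -1.96). The part of these levels in the results below was not tested. In bulk RNA, a change in RNA per cell and a change in the share of cells that carry it cannot be told apart.

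Since factors that bind gene starts are part of the background of these genes, the stretch from 250 bases before to 50 after the RefSeq start (GRCh38.p14) was searched on both strands for 4 short motifs, and 69 of the 77 genes had an entry. The core AAGATGGC, known from YY1 sites, stood in 21 of 69 (30.4%), against 3.52% of all 27305 genes with an entry and 6.47% of those that passed the expression filter. In 13 of these 21 genes the ATG inside the match was an annotated start codon, so there the same letters also begin the coding sequence. The ETS core CCGGAAG stood in 29 of 69 (42.0%), against 12.2% of all genes and 21.95% of those that passed the filter. The GC-rich palindromic NRF1 core stood in 13.0% of members and 13.1% of filtered genes, and the E-box CACGTG in 14.5% and 12.6%. The windows below belong to genes whose levels are given further on, and are written 5′ to 3′ on the gene's strand with the match in capitals. The first 4 hold the AAGATGGC core, the next 4 the ETS core (CTTCCGG is the same core on the opposite strand) and the last the NRF1 core.
MRPL46 (chr15:88467363-88467390, minus strand): gggagaacgaAAGATGGCggcgcccgta
MRPS18A (chr6:43687765-43687792, minus strand): taggtttttgAAGATGGCggccctcaag
MRPL42 (chr12:93467512-93467539, plus strand): ggattgaaacAAGATGGCgggttcgtgg
MRPL50 (chr9:101398578-101398605, minus strand): gatctcatcgAAGATGGCggcgcgatct
MRPS18A (chr6:43687806-43687832, minus strand): gcgctacgttCCGGAAGcggaaatgga
MRPL54 (chr19:3762651-3762677, plus strand): ccactgacgtCTTCCGGaaacgtgcac
MRPL28 (chr16:370515-370541, minus strand): ggcagatcggCTTCCGGttccggtggg
MRPS26 (chr20:3046005-3046031, plus strand): ccccgcgccgCTTCCGGggcacggtgg
MRPL17 (chr11:6683402-6683431, minus strand): aggctctgatGCGCATGCGCaaacacgttc

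The first 2 AAGATGGC windows are from genes that rose in the knockout cells and the next 2 from genes that fell. Over the members that passed the filter and had an entry, those with the core held 11 that rose, 2 that fell and 6 not called (median log2 fold change 0.47), and those without it 30, 3 and 15 (median 0.44). With the ETS core the counts were 18, 0 and 11 (median 0.52), and without it 23, 5 and 10 (median 0.43). A match of letters is a description of the sequence and shows no binding.

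The large subunit was tested first. All 48 MRPL genes passed the filter; 31 were higher and 5 lower in the knockout libraries and 12 missed the threshold (edgeR quasi-likelihood, Benjamini-Hochberg adjusted p under 0.05 over all 14398 tested genes). Of all tested genes, 28.9% rose and 30.8% fell, 59.7% in all, so the share of MRPL genes that rose (64.6%) was above the background and the share that fell (10.4%) below it. The median log2 fold change was 0.48, from -0.74 (MRPL42) to 1.34 (MRPL55), against a median of -0.01 over all tested genes. In 31 MRPL genes all knockout libraries lay above all control libraries and in 4 all lay below, where 32.6% and 34.2% of tested genes did so. Most rises were under 2-fold: 5 MRPL genes rose by 2-fold or more and 0 fell that far, against 9.2% and 14.2% of tested genes.

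**Figure D1:**
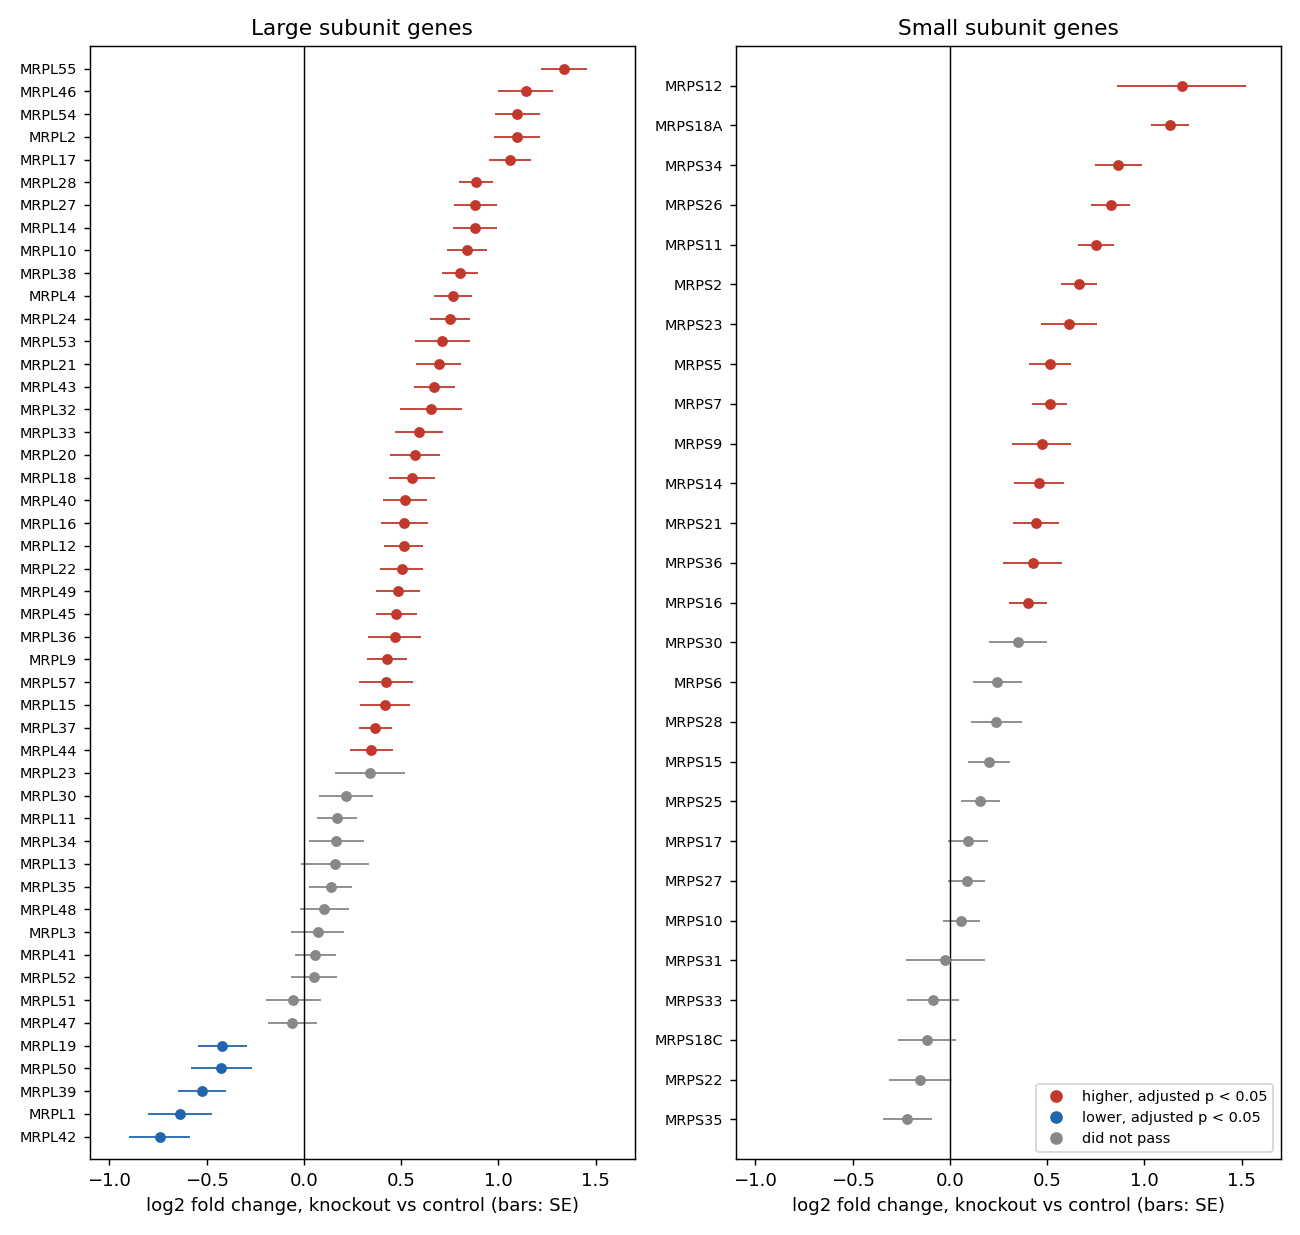
Log2 fold change of knockout against control (x axis) for each of the 75 tested genes, large subunit left and small subunit right, with bars of 1 SE; red marks rises, blue falls and grey genes not called. The 31 large and 14 small subunit genes that rose lie to the right of 0, and the 5 that fell are all large subunit genes.

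MRPL55, a bacterial-type protein of the large subunit (chromosome 1, 228106679 to 228109312, minus strand, GRCh38), had the highest fold change. It stood at 31.3, 28.3 and 29.6 CPM in control and at 65.6, 83.5 and 76.1 CPM in knockout libraries, a log2 fold change of 1.34 ± 0.12 (SE, edgeR adjusted p = 3.49e-05). The groups did not overlap: even the lowest knockout library was more than 2-fold above every control. MRPL46, a mitochondria-specific protein of the central protuberance, stood at 26.6, 24.0 and 22.5 CPM in control and 46.9, 64.0 and 49.95 CPM in knockout libraries (log2 fold change 1.14 ± 0.14, edgeR adjusted p = 0.000163). MRPL54, another protein found only in mitochondria, stood at 25.8, 22.2 and 21.5 against 46.5, 53.8 and 48.4 CPM (1.10 ± 0.12, edgeR adjusted p = 7.88e-05). In both genes every knockout library was above every control library.

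MRPL2, the counterpart of a bacterial protein that helps form the peptidyl transferase centre, stood at 47.7, 40.3 and 42.1 CPM in control and 82.1, 103 and 93.1 CPM in knockout libraries (log2 fold change 1.10 ± 0.12, edgeR adjusted p = 8.28e-05). MRPL17, a protein at the rim of the exit tunnel, stood at 111, 97.1 and 96.1 CPM against 192, 235 and 206 CPM (1.06 ± 0.11, edgeR adjusted p = 6.77e-05). MRPL28 stood at 96.9, 90.0 and 88.1 CPM against 167, 170 and 170 CPM (0.88 ± 0.09, edgeR adjusted p = 5.53e-05). The knockout libraries of MRPL28 were nearly level with each other, while in MRPL17 and MRPL2 the second knockout library was the highest; in none of these genes did the groups overlap.

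**Figure D2:**
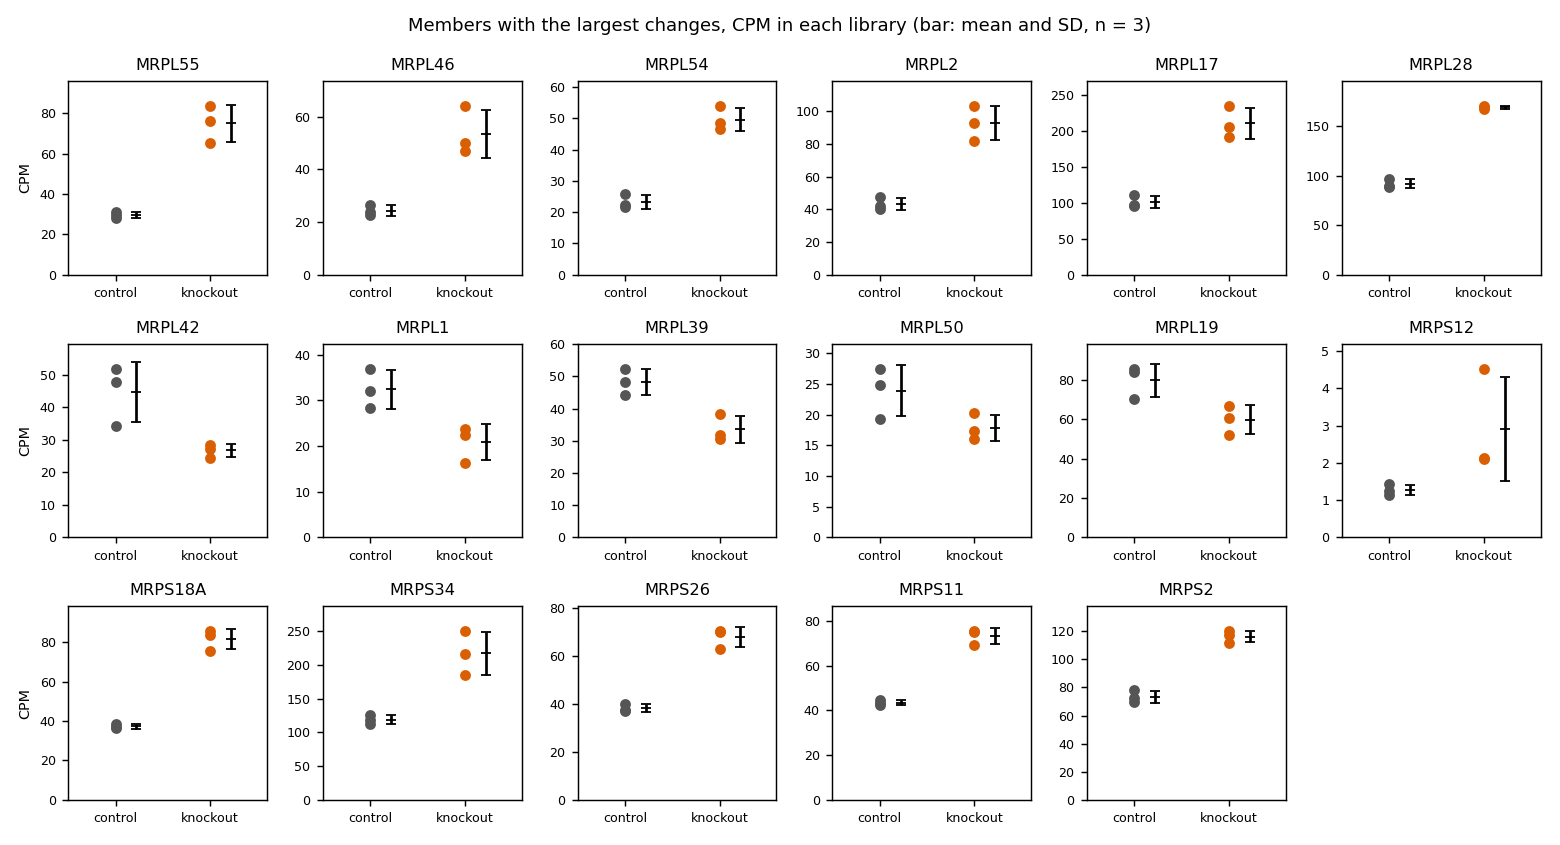
CPM in each library (y axis, starting at 0 in every panel) for the genes with the largest called changes in each subunit, control left and knockout right; the bar beside each group is the mean and SD of 3 libraries. The groups are apart in every panel but MRPL50, where 1 control library lies below 1 knockout library.

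The 5 large subunit genes that fell were MRPL42, MRPL1, MRPL39, MRPL50 and MRPL19. MRPL42, a mitochondria-specific protein, stood at 34.3, 47.7 and 51.8 CPM in control and 24.5, 28.3 and 27.2 CPM in knockout libraries (log2 fold change -0.74 ± 0.16, edgeR adjusted p = 0.00306). MRPL1, the counterpart of the protein of the mobile stalk near the tRNA exit site, stood at 28.3, 32.0 and 36.9 against 16.3, 23.7 and 22.3 CPM (-0.64 ± 0.16, edgeR adjusted p = 0.00805). MRPL39, found only in mitochondria, stood at 44.1, 48.4 and 52.3 against 30.4, 38.4 and 31.9 CPM (-0.52 ± 0.12, edgeR adjusted p = 0.00547). In these genes the groups did not overlap. The lowest control library of MRPL42 was closer to the knockout libraries than to the highest control.

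MRPL19, bacterial in type, fell from 70.2, 85.7 and 84.0 to 60.5, 66.7 and 52.1 CPM (log2 fold change -0.42 ± 0.12, edgeR adjusted p = 0.0166). MRPL50, found only in mitochondria, went from 19.4, 27.5 and 24.9 to 17.3, 20.2 and 16.0 CPM (-0.42 ± 0.16, edgeR adjusted p = 0.0424), and here the groups overlapped. Both calls were near the threshold and did not hold on leaving out any of several libraries. That of MRPL19 was lost without control library 2 or 3 or knockout library 3 (edgeR adjusted p = 0.0942, 0.0832 and 0.0685). That of MRPL50 was lost without control library 2 or 3 or knockout library 1 or 3 (edgeR adjusted p from 0.103 to 0.205). Over the libraries left out, the log2 fold changes ran from -0.50 to -0.33 in MRPL19 and from -0.53 to -0.29 in MRPL50. MRPL1, MRPL39 and MRPL42 remained lower whichever library was left out.

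By descent, 20 of the 30 bacterial-type large subunit genes rose and 2 fell (median log2 fold change 0.52), and 11 of the 18 mitochondria-specific ones rose and 3 fell (median 0.39). With trends in transcript length and GC content removed (the offset described below), 13 and 5 were higher and 4 and 6 lower (medians 0.17 and 0.08). With the middle-length transcript in that offset, 17 and 8 were higher and 4 and 4 lower (medians 0.31 and 0.09). By place in the particle, in groups drawn up after the values were known, 4 of 5 genes near the peptidyl transferase centre rose (MRPL2, MRPL4, MRPL16 and MRPL27), while MRPL3, which also reaches towards it, did not pass the test (log2 fold change 0.07 ± 0.14). In the stalk that recruits translation factors, MRPL10 (0.84 ± 0.10) and MRPL12 (0.51 ± 0.10) rose and MRPL11, at its base, was at 0.17 ± 0.10. Of 6 genes at the rim of the exit tunnel, MRPL17, MRPL24, MRPL32 and MRPL22 rose, and MRPL23 (0.34 ± 0.18) and MRPL47 (-0.06 ± 0.13) did not pass. Of 5 in the central protuberance, MRPL46, MRPL38, MRPL18 and MRPL40 rose and MRPL48 (0.10 ± 0.13) did not pass. Each of these parts held 1 or more genes that did not pass. Of all tested genes 28.9% rose, and 30.5% and 30.4% were higher with the canonical and the middle-length offset. In the order above, the canonical offset left 2, 1, 3 and 1 genes of these parts higher. It made 2 stalk genes and 1 of the central protuberance lower. The middle-length offset gave 2, 1, 4 and 4 higher and 1 stalk gene lower. The 5 genes that fell without an offset were not among those placed in these groups. As the groups were drawn up with the values known, nothing about where falls lie in the particle follows from that.

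In the small subunit 27 of 29 MRPS genes passed the filter; 14 were higher, 0 lower and 13 missed the threshold (edgeR, same background of 28.9% higher and 30.8% lower). The share that rose, 51.9%, was above the background. At an unadjusted p under 0.05 the counts were 15 higher and 0 lower, and DESeq2 and limma-voom also called 0 lower. Over all 14398 tested genes DESeq2 called 8394 and limma-voom 8588 in either direction. How many of all tested genes passed at the unadjusted p was not counted. The median log2 fold change was 0.40, from -0.22 (MRPS35) to 1.19 (MRPS12). In 19 genes all knockout libraries lay above all controls, where 32.6% of tested genes did so. Of the 27 genes 2 rose by 2-fold or more, against 9.2% of tested genes. Without knockout library 2 the counts were 13 higher and 4 lower, the 4 being MRPS18C, MRPS22, MRPS33 and MRPS35. In that fit 9542 of 14680 tested genes were called in either direction, against 8593 of 14398 with all libraries.

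MRPS18A had the clearest rise of the MRPS genes (chromosome 6, 43671202 to 43687791, minus strand, GRCh38). It stood at 38.7, 36.3 and 36.8 CPM in control and 75.7, 83.5 and 85.5 CPM in knockout libraries, a log2 fold change of 1.13 ± 0.10 (SE, edgeR adjusted p = 3.36e-05). Although named for the small subunit, its protein is known to sit in the large one, as does that of MRPS30, which was at 0.35 ± 0.15 (edgeR adjusted p = 0.0697). Counted with the large subunit, they gave 32 rises there and 13 in the small subunit. Its paralog MRPS18C, at 45.2, 42.4 and 39.9 CPM in control and 32.7, 48.4 and 36.5 CPM in knockout libraries, had overlapping groups (log2 fold change -0.12 ± 0.15, edgeR adjusted p = 0.527). Without knockout library 2 MRPS18C was at -0.29 (edgeR adjusted p = 0.0211; over all alternatives from 0.0211 to 0.999). MRPS18B is listed at 0 in all libraries. Of the 14 coding genes within 250 kb of it, 10 are listed at 0 in all libraries too, TUBB among them, a tubulin gene that dividing cells use, so no level is read from the 0 of MRPS18B.

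MRPS34, a mitochondria-specific protein, stood at 125, 119 and 113 CPM in control and 185, 249 and 216 CPM in knockout libraries (log2 fold change 0.87 ± 0.12, edgeR adjusted p = 0.000299). MRPS26, found only in mitochondria as well, stood at 40.1, 37.6 and 36.9 against 62.9, 70.1 and 70.1 CPM (0.83 ± 0.10, edgeR adjusted p = 0.000141). MRPS2, bacterial in type, stood at 78.1, 72.3 and 69.8 against 112, 117 and 120 CPM (0.66 ± 0.09, edgeR adjusted p = 0.000303). The groups were apart in each. MRPS12, whose bacterial counterpart lies at the decoding centre, had the highest fold change of the MRPS genes but few reads: 26, 31 and 38 in control and 51, 112 and 57 in knockout libraries (log2 fold change 1.19 ± 0.33, edgeR adjusted p = 0.0122), and without knockout library 2 its value was 0.73.

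MRPS11, a protein of the platform, stood at 44.7, 42.4 and 43.3 CPM in control and 69.1, 75.2 and 75.2 CPM in knockout libraries (log2 fold change 0.75 ± 0.09, edgeR adjusted p = 0.000172). Its annotated start on chromosome 15 lies 63 bases from that of MRPL46, on the opposite strand, so a large and a small subunit gene are read away from the same stretch of DNA. Both rose, and they were the only members with starts within 100 kb of each other. The MRPL46 window printed above begins at that gene's annotated start.

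Of the 15 tested bacterial-type small subunit genes 9 rose (median log2 fold change 0.44), and of the 9 mitochondria-specific ones 3 did, MRPS34, MRPS26 and MRPS23 (median 0.09). Of all tested genes 28.9% rose. With the length and GC offset described below, 5 and 3 genes of these classes were higher and 1 and 1 lower (medians 0.099 and 0.105). With the middle-length transcript in it, 5 and 4 were higher and 1 and 1 lower (medians 0.14 and 0.19). The lower class median of the mitochondria-specific genes was thus not seen with either offset. Whether the 2 classes differ was not tested. In groups drawn up after the values were known, the head held 3 rises of 4 genes (MRPS7, MRPS9 and MRPS14, with MRPS10 at 0.06 ± 0.10), the body 3 of 4 (MRPS5, MRPS12 and MRPS16, with MRPS17 at 0.09 ± 0.10) and the platform 2 of 5 (MRPS11 and MRPS21). In the platform MRPS6 was at 0.24 ± 0.13, MRPS15 at 0.20 ± 0.11 and MRPS18C, as above, below 0. With the canonical offset head, body and platform held 2, 2 and 1 higher genes, and with the middle-length one 3, 1 and 1. Either offset made 1 platform gene lower. MRPS36, named for the small subunit but known as KGD4, a component of the 2-oxoglutarate dehydrogenase complex, rose by a log2 fold change of 0.43 ± 0.15 (edgeR adjusted p = 0.036), a call lost in 8 of the alternative settings, 5 of them single libraries left out (all but knockout library 3; edgeR adjusted p from 0.0581 to 0.129). MRPS24 had 1 to 5 reads in each library and was not tested. Of its canonical exon bases 90.9% are shared with the readthrough gene URGCP-MRPS24, which has 0 reads.

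The knockout libraries differed among themselves in these genes. Summed over the large subunit, control libraries held 3641, 3502 and 3479 CPM and knockout libraries 4393, 5479 and 4674 CPM. Summed over the small subunit the values were 1683, 1649 and 1620 CPM and 1980, 2451 and 2073 CPM. Every knockout sum was above every control sum, and in both subunits knockout library 2 was the highest and knockout library 1 the lowest of the knockout libraries. Knockout library 2 was the highest of the 3 in 67 of the 75 tested genes, 44 of 48 in the large and 23 of 27 in the small subunit. The same library stood apart over the whole table. The chi-square per degree of freedom between its counts and those of knockout libraries 1 and 3 was 75.7 and 58.9, against 11.3 between libraries 1 and 3. In how many of all tested genes it was the highest was not counted. Without knockout library 2, 31 large subunit genes rose and 6 fell, where 9542 of 14680 tested genes were called in either direction.

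**Figure D3:**
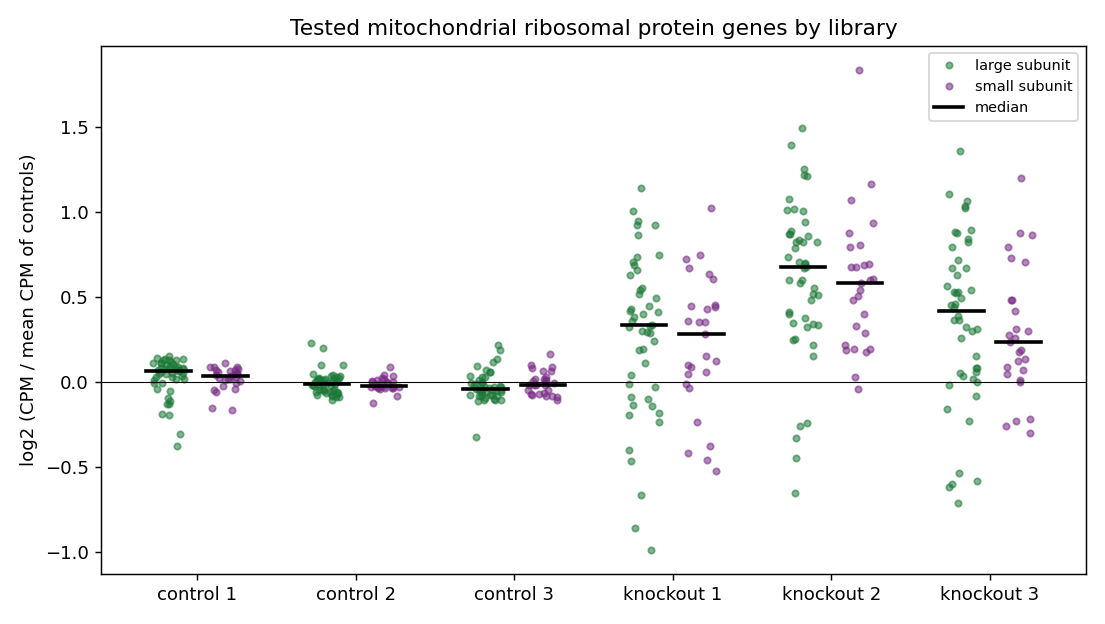
Log2 of each gene's CPM over its mean in the control libraries (y axis) in every library, green for large and purple for small subunit genes, with the median as a black line. Knockout medians are 0.33, 0.67 and 0.41 in the large subunit and 0.28, 0.58 and 0.23 in the small subunit, with knockout library 2 the highest.

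Levels were compared between genes per kilobase, as CPM divided by the length of the gene's middle-length complete coding transcript. On that scale the tested large subunit genes had a median control level of 60.3 CPM per kb, from 7.16 to 287, and the small subunit genes 43.4, from 1.32 to 185. The highest large subunit levels were those of MRPL51, at 287 ± 21.0 CPM per kb (SD, n = 3), and MRPL49, at 235 ± 17.3; the lowest were those of MRPL50, at 7.16 ± 1.24, and MRPL45, a protein that contacts the inner membrane, at 12.7 ± 0.48. In the small subunit MRPS23 (185 ± 7.27 CPM per kb) and MRPS16 (175 ± 8.89) were highest, and lay within 2 SDs of each other, and MRPS12 (1.32 ± 0.15) and MRPS36 (5.35 ± 0.42) were lowest. Control levels per kb spanned 40.1-fold in the large and 140-fold in the small subunit. The small subunit span rests on MRPS12, with 26 to 38 control reads. SARS2, the gene beside it, had 10 to 63 control reads, and why both are low was not tested. Ranks per kb also depend on the transcript: MRPL49 was divided by 501 bases (canonical 2026) and MRPS23 by 580 (canonical 5609). Of the highest genes, MRPL49 rose (log2 fold change 0.49 ± 0.11), MRPS16 and MRPS23 rose (0.40 ± 0.10 and 0.61 ± 0.14), and MRPL51 did not pass the test (-0.05 ± 0.14, edgeR adjusted p = 0.758).

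Transcript length and base composition moved with the fold changes, in these genes and in the table as a whole. The tested members are short: their canonical transcripts had a median of 1260 bases against 3173 over tested genes, and 57 of 75 fell within the shortest 25% of tested genes (up to 1864 bases), whose median log2 fold change was 0.33. Across members, fold change and GC content had a Spearman rho of 0.65 (75 genes from the same 6 libraries, a description), against 0.48 over all tested genes. In transcripts under 40% GC, 2 of 10 members rose and 4 fell, where 5.76% of tested genes in that range rose, and from 55 to 60% GC 9 of 9 rose, where 48.0% of tested genes did. Within each GC range the members' median was above that of all tested genes in the range: -0.09 against -0.69 under 40% GC, 0.23 against -0.39 from 40 to 45%, 0.40 against -0.02 from 45 to 50%, 0.51 against 0.23 from 50 to 55%, 0.88 against 0.34 from 55 to 60% and 0.80 against 0.48 above 60%.

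**Figure D4:**
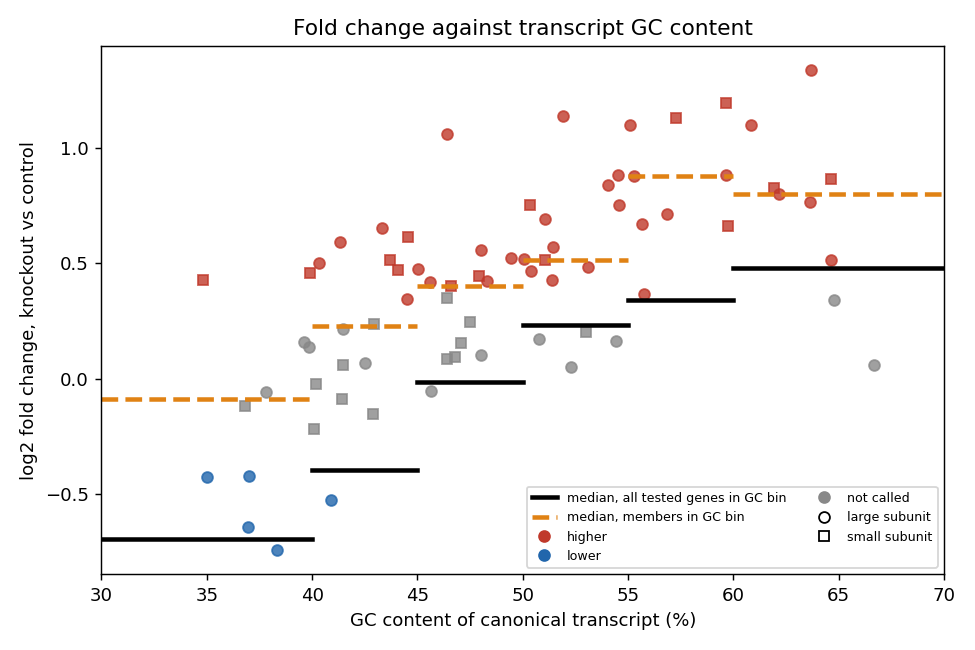
Log2 fold change (y axis) against the GC content of the canonical transcript (x axis, %) for the 75 tested members, circles for large and squares for small subunit genes; black lines are the medians of all tested genes in each GC range and dashed orange lines those of the members. Values climb with GC content, 4 of the 5 genes that fell lie under 40% GC, and every orange line is above the black line of its range.

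When trends with length and GC content were removed in each library (an offset, which also removes any group difference that follows them), 18 large subunit genes were higher and 10 lower, with a median log2 fold change of 0.13, and 10 small subunit genes were higher and 2 lower, with a median of 0.11. With the offset 58.6% of tested genes were called, 30.5% higher and 28.1% lower. Of the 45 members that rose without the offset, 22 were higher with it, 21 did not pass and 2, MRPL12 and MRPL37, were lower. Among those still higher were MRPL55 (0.61), MRPL46 (0.57), MRPL2 (0.48), MRPL54 (0.43), MRPL17 (0.92), MRPL28 (0.24), MRPS18A (0.48) and MRPS11 (0.68). MRPS34 (0.11), MRPS26 (0.10) and MRPS2 (0.01) did not pass with it. MRPL1 and MRPL39 were lower with and without it, at -0.54 and -0.56.

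The offset depends on which transcript stands for a gene. The canonical transcripts of MRPL42 and MRPL19 have 15557 and 7825 bases, and with their offset both genes were higher (0.58 and 0.68); with the middle-length coding transcript in its place, chosen after seeing the data, both were lower (-0.22 and -0.54). With the latter, 25 large subunit genes were higher and 8 lower (median 0.23), 12 small subunit genes were higher and 2 lower (median 0.19), and 28 of the 45 rises remained, MRPS11 (0.17) not among them; of tested genes 58.5% were called, 30.4% higher and 28.1% lower. Of all tested members 37.3% were higher with the canonical and 49.3% with the middle-length transcript.

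**Figure D5:**
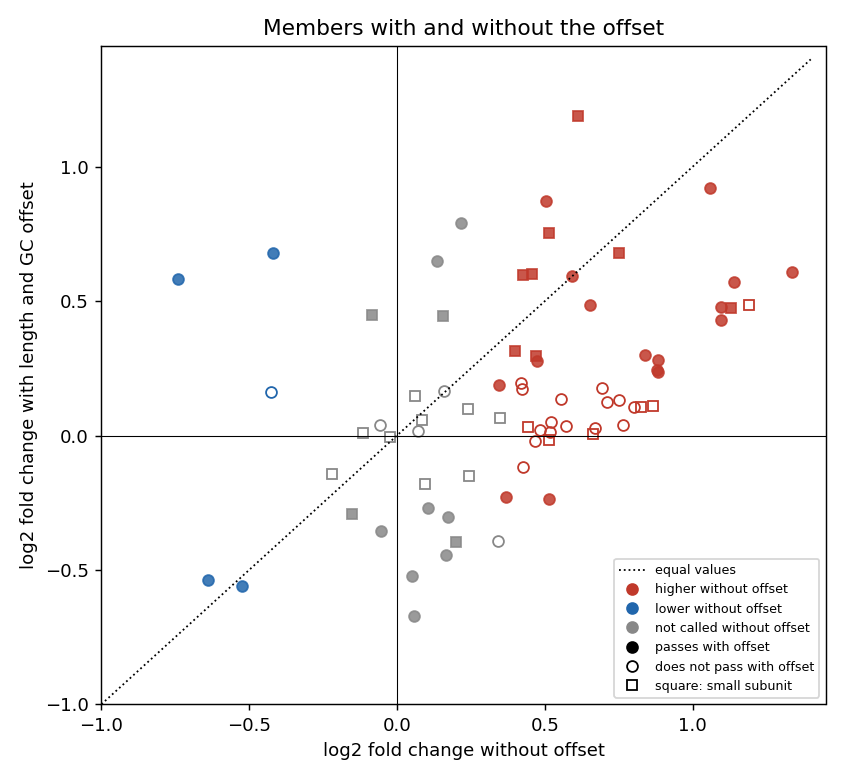
Log2 fold change with the length and GC offset (canonical transcript, y axis) against that without it (x axis) for the 75 tested members; filled symbols pass the test with the offset, open ones do not, and the dotted line marks equal values. Most members that rose lie below the dotted line, and MRPL42 and MRPL19 are the filled blue points in the upper left.

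Scaling also moved the counts. With library totals in place of TMM factors the median of all tested genes was -0.18, and against it the median of the large subunit was 0.31 with 25 rises and 5 falls, and that of the small subunit 0.23 with 9 rises and 1 fall, where 21.9% of tested genes rose and 37.8% fell.

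Genes that act with the mitochondrial ribosome were read from 5 lists, to be set beside the 28.9% of all tested genes that rose and the 30.8% that fell. Of the 6 subunit genes whose names lie outside the MRPL and MRPS rule, 5 rose and 1 fell: ICT1, the large subunit protein also called MRPL58 and a peptidyl-tRNA hydrolase, rose by a log2 fold change of 0.9995 ± 0.12, AURKAIP1 by 0.63 ± 0.12 and DAP3, a small subunit GTP-binding protein, by 0.57 ± 0.11, while PTCD3, a small subunit pentatricopeptide protein, was at -0.84 ± 0.10 (edgeR adjusted p = 0.000125, 0.00141, 0.00168 and 0.000165). CHCHD1 and GADD45GIP1 were the other rises. With the length and GC offset 2 were higher and 0 lower: CHCHD1 (0.07), GADD45GIP1 (-0.17), AURKAIP1 (-0.11) and PTCD3 (-0.06) did not pass. With the middle-length transcript 3 were higher and PTCD3 was lower, at -1.09.

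Of 28 assembly factors 16 rose and 5 fell (57.1% and 17.9%, beside 28.9% and 30.8% of all tested genes). The most clearly changed were DDX28, an RNA helicase of large subunit assembly (log2 fold change 1.03 ± 0.11), TRUB2, a pseudouridine synthase (0.88 ± 0.10), and NGRN (0.84 ± 0.10) among the rises, and MTERF3 (-0.89 ± 0.14), METTL15, a methyltransferase of the small subunit's ribosomal RNA (-1.04 ± 0.19), and NOA1, a GTPase (-0.57 ± 0.10), among the falls. Each of these 6 kept its direction and its call with the offset, but over the list 13 were then higher and 10 lower, and with the middle-length transcript 10 and 8. Of 17 translation factors 4 rose and 7 fell (23.5% and 41.2%, beside 28.9% and 30.8% of all tested genes). With the offset the counts were 6 higher and 4 lower, and with the middle-length transcript 5 and 4. TACO1, an activator of COX1 translation (0.68 ± 0.10), TUFM, the elongation factor Tu (0.58 ± 0.10), and PDF, the peptide deformylase (0.95 ± 0.16), rose. The initiation factor MTIF2 (-0.66 ± 0.12), the elongation factor GFM1 (-0.49 ± 0.10) and LRPPRC, which stabilizes mitochondrial messages (-0.73 ± 0.15), fell. With the offset GFM1 was higher, at 0.42, and TACO1 (0.06), TUFM (0.05) and LRPPRC (0.13) did not pass.

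Of 9 genes for the transcription and copying of mitochondrial DNA, POLRMT, the RNA polymerase (log2 fold change 0.73 ± 0.10), and C10orf2, the Twinkle helicase (0.70 ± 0.13), rose and POLG2, a polymerase accessory subunit (-0.39 ± 0.15, edgeR adjusted p = 0.0481), fell, the last a call lost in 11 of 17 alternatives. The list held 22.2% rises and 11.1% falls, beside 28.9% and 30.8% of all tested genes. With the offset 5 were higher, TFAM (0.61) among them, and 1 lower, beside 30.5% and 28.1% of all tested genes. With the middle-length transcript the counts were 3 and 1. Of 8 tested regulators of mitochondrial biogenesis, ESRRA (0.60 ± 0.10), NRF1 (0.52 ± 0.11), GABPB2 (0.57 ± 0.15) and PPRC1 (0.46 ± 0.17) rose, and GABPA, the DNA-binding subunit of GABP (-0.78 ± 0.17), and YY1 (-0.41 ± 0.10) fell. The shares in this list were 50% and 25%, beside the same background. GABPB1, like GABPB2 a gene for the partner subunit of GABPA, was at -0.15 ± 0.14 and did not pass. With the offset GABPA (0.09), YY1 (0.11) and ESRRA (0.05) did not pass. Over the list 5 were then higher and 0 lower, GABPB1 (0.56) and PPARGC1B (0.70) among the higher ones. With the middle-length transcript 3 were higher and 0 lower, and GABPB1 and PPARGC1B did not pass. PPARGC1A, the coactivator PGC-1alpha, did not pass the filter. The ribosomal RNAs of the mitochondrial particle, listed as RNR1 and RNR2, had 1 to 43 reads a library, too few to set beside the proteins.

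Some counts are uncertain because reads could belong to another gene, and it is not known whether strand was used in counting. Of 105 rows for pseudogenes of members, 82 had 0 reads in all libraries; MRPS31P4 and MRPS31P5 held 38.6% and 13.1% as many reads as MRPS31, and MRPL45P2 14.1% as many as MRPL45. In 17 members over 25% of the canonical exon bases lie in exons of another annotated gene. Among them were MRPL53 (99.2%, CCDC142), MRPS5 (97.1%), MRPL38 (94.3%), MRPS18C (83.6%, the FAM175A gene on the opposite strand), MRPL46 (73.4%), MRPS18A (60.6%, RSPH9 on the opposite strand) and MRPL2 (54.5%). In MRPL2, 52.1% of the bases are shared on the same strand with an unnamed gene. KLC4, on the opposite strand, covers 2.47% of them. RSPH9 is listed at 0. FAM175A stood at 10.6 to 18.8 CPM in control and 3.12 to 4.63 CPM in knockout libraries, and KLC4 at 10.3 to 13.2 and 34.3 to 39.0 CPM, and their part in the values of MRPS18C and MRPL2 was not tested. Without the 17 members the median log2 fold change was 0.42 in the large and 0.43 in the small subunit.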

How the data were processed

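RNA-seq libraries of 786-O cells, 3 control and 3 PHF8 knockout, were analysed from 1 table. It holds raw counts by gene symbol as deposited; per the labels' series design text, the authors mapped reads to GRCh38 with HISAT2 (version 2.0.4 per the submitters' processing notes) and counted with HTSeq. Strand setting and annotation release: not given in the sources used here. Library totals ran from 21533615 to 29095133 counts; counting error is small beside the spread between libraries except in genes with few reads.

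Knockout was compared with control on the whole table by edgeR (version 4.0.16, with limma 3.58.1 under R 4.3.3), quasi-likelihood test, with TMM factors and filterByExpr (14398 genes kept), and with Benjamini-Hochberg adjustment over these. SE is the log2 fold change over the root of F. Lengths, GC content and positions came from GENCODE on GRCh38, matched by symbol (34408 directly, 1574 by an older symbol, 18279 unmatched). The offset removed lowess trends (span 0.3) where both were known (92.4% of tested genes). Alternatives were other factors, filters and tests (DESeq2 1.42.0, limma-voom), a replicate block, the offset and each library left out. The script was tested on simulated data.

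The text names PHF8; per subunit the 6 largest called changes each way and the 2 highest and 2 lowest levels; the MRPS18 paralogs; members not tested; and up to 3 called genes each way per related list by p. Other names are given to complete a count and were chosen after values were seen. Members and lists were chosen with earlier results of these data known.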

Additional observations from a re-analysis of the deposited data

How the results depend on the processing

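Limma-voom, DESeq2, robust dispersions, both other filters and upper-quartile or median-ratio factors gave the same counts. In each, 31 large subunit genes rose and 5 fell, and 14 small subunit genes rose and 0 fell. Calls in either direction ran from 8394 (DESeq2) to 8620 (upper-quartile factors) of 14398 tested genes. They were 8142 of 12719 with the stricter filter and 9263 of 25814 without a filter. With the length and GC offset the counts were 18 higher and 10 lower in the large subunit, 2 lower in the small, medians 0.1326 and 0.1054; with the middle-length transcript 8 large and 2 small subunit genes were lower, medians 0.2335 and 0.1902. With library totals only, 9 small subunit genes rose and 1 fell. Leaving out each library gave 27 to 31 rises and 3 to 6 falls in the large subunit. In the small subunit it gave 12 to 15 rises and 0 to 4 falls, the 4 without knockout library 2. Medians ran from 0.4144 to 0.539 and from 0.2733 to 0.4514. In these fits calls in either direction ran from 7170 of 14710 tested genes (without control library 3) to 9542 of 14680 (without knockout library 2). Their shares by direction were not counted. Of the 75 tested members 20 changed sign with the canonical offset and 18 with the middle-length one, MRPL12 being called higher without and lower with either. Among the genes named by rule, signs turned with the canonical offset in MRPL42 (0.5827), MRPL50 (0.1602), MRPL19 (0.6780), MRPS18C (0.0081), AURKAIP1 (-0.1148), GFM1 (0.4242), LRPPRC (0.1319), GABPA (0.0931) and YY1 (0.1100), and with the middle-length offset in MRPL50 (0.3475), MRPL49 (-0.0626), MRPS16 (-0.0778), AURKAIP1 (-0.1087), GFM1 (0.1498), LRPPRC (0.0880), GABPA (0.2209) and YY1 (0.0048). MRPL51, not called with all libraries, ran from -0.2305 (without knockout library 2, called lower by edgeR, adjusted p = 0.0212) to 0.0311 over the libraries left out and was called lower with the canonical offset (-0.36). The offset removes trends by construction; why fold changes follow length and GC content was not tested.

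With the replicate number as a block, 31 large subunit genes rose and 5 fell, and 13 small subunit genes rose and 0 fell, MRPS36 being the call lost. That fit called 8308 of 14398 tested genes in either direction. Same-numbered control and knockout libraries had deviations correlated at 0.02, -0.04 and 0.01, and differently numbered ones at -0.046 to 0.032. These values show no shared effect of a number. They cannot tell whether libraries were made in numbered pairs, which the labels leave unstated. Depth limits MRPS12, MRPS24 and MRPS36, the members with the fewest reads.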
